A study of Mus musculus with 4 samples.

Results

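The genes described here are 10 transcripts that mark neutrophils or encode the contents of their granules, measured in macrophages sorted from mouse liver. They are S100a8, S100a9, Retnlg, Ly6g, Lcn2, Camp, Ngp, Ltf, Mpo and Elane. They were chosen by gene symbol, and all 10 were found among the 29247 genes of the count table. Of these, 7 had enough reads to be tested, and 3 (Ly6g, Mpo and Elane) did not.

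Messenger RNA came from flow-sorted liver macrophages of C57BL6J mice aged 8 weeks. In the APAP group, 3 libraries were made from Cxcr4+ macrophages. The mice of this group were given acetaminophen (APAP), a drug that kills hepatocytes at high dose, at 300 mg/kg into the peritoneum in saline and were killed 72 h later. The comparison group is 1 library of control macrophages, whose treatment label is "Control" and names no injection. The labels name the Cxcr4 sort for the APAP group alone and give no other gate for either group, so the drug and the sort cannot be told apart. Separate animals or pools are not named for the APAP libraries. Their spread may therefore be technical, and it is the one spread that the p-values measure. The APAP columns of the table carry no sample number and are called libraries 1, 2 and 3 in the order in which they stand there.

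Neutrophils are short-lived phagocytes that fill their granules in sequence while they mature in the bone marrow. Primary granules, loaded first, hold the peroxidase Mpo and serine proteases such as the elastase Elane. Secondary granules, loaded later under the transcription factor C/EBP epsilon (Cebpe), hold lactoferrin (Ltf), the cathelicidin Camp, the neutrophilic granule protein Ngp and the iron-siderophore binder lipocalin 2 (Lcn2). Mature cells stop transcribing most granule genes and instead carry large amounts of S100a8 and S100a9, which form the calcium-binding dimer calprotectin, together with the secreted resistin-like protein Retnlg and the surface antigen Ly6g. Neutrophils enter the liver after acetaminophen injury and are cleared by macrophages. Some of these genes are not confined to neutrophils: monocytes also express S100a8 and S100a9, and Lcn2 is made by hepatocytes and by stimulated macrophages.

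Libraries 1, 2 and 3 held 48282283, 52043418 and 56702837 counts, and the control held 49950909. Fewer genes had reads in the control, 18793 against 23376, 23854 and 23880 in libraries 1, 2 and 3. What this adds to the zeros of the control was not tested. Low counts in the table were more often even than odd: of genes with 1 to 20 counts, 65.3% to 66.0% were even after APAP and 74.0% in control cells, against 48.7% to 50.2% of genes above 100 counts. A pair of reads may therefore have entered as 2 counts, so 3 read pairs, or 6 counts, were taken as the limit that a count of 0 allows. In the control that limit is 0.133 CPM (counts-per-million, scaled by trimmed mean of M-values factors), and intervals likewise took 2 counts as 1 pair. Limits and intervals cover counting error only. The cells carried the macrophage transcripts that their label implies: the summed level of 8 macrophage markers ranged from 16514 to 19329 CPM after APAP and was 19521 CPM in control cells. Among these 8, Fcgr1, Cd14, Cd68 and Adgre1 fell and Mertk rose, beside 18.9% lower and 25.4% higher of all tested genes. Lyz2, named after its values were seen, made up a large part of each sum and is also on the list of further neutrophil genes below. It stood at 7970, 8809 and 8564 CPM in libraries 1, 2 and 3 and at 6746 CPM in the control.

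The upstream sequences of 6 members are shown because S100a8 with S100a9, and Camp with Ngp and Ltf, moved together among the libraries, and Retnlg followed neither. They are RefSeq sequences of build GRCm38.p6, not the mm39 build of the counts. They begin 250 bases before the RefSeq start and stop at the start or at the first annotated exon. They are written 5′ to 3′ on the strand of the gene. The stretches were S100a8 at chr3:90668821-90668977 (plus strand, 157 bases), S100a9 at chr3:90695722-90695971 (minus strand, 250 bases), Retnlg at chr16:48872358-48872607 (plus strand, 250 bases), Camp at chr9:109849618-109849706 (minus strand, 89 bases), Ngp at chr9:110419558-110419746 (plus strand, 189 bases) and Ltf at chr9:111019042-111019270 (plus strand, 229 bases). Capitals mark every match, on either strand, to TTGCNNAA, a motif of C/EBP factors, or GAGGAA, the core of a PU.1 motif. TATAAA was searched too and matches in none of these stretches.
S100a8: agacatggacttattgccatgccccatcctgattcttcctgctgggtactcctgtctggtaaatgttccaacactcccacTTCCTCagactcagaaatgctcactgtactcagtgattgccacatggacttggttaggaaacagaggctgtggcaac
S100a9: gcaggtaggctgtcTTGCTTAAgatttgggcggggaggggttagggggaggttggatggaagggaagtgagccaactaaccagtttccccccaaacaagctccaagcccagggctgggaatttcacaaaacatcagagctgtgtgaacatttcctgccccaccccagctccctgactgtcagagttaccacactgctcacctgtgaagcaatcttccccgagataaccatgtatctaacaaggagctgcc
Retnlg: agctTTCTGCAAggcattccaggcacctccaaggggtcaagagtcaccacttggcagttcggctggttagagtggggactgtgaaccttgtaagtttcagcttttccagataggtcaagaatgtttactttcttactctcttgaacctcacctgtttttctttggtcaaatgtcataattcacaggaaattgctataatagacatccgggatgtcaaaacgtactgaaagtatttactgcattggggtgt
Camp: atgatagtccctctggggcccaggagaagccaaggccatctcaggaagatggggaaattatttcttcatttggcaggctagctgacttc
Ngp: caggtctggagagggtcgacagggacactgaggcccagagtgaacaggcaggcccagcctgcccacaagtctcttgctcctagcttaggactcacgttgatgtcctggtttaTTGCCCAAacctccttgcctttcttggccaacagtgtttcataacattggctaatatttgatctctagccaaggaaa
Ltf: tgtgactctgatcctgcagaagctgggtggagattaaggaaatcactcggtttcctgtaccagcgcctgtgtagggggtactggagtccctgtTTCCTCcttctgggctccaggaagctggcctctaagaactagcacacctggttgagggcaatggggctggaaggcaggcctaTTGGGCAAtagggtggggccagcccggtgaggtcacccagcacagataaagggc

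In the whole window of 250 bases, TTGCNNAA was found for 6 of the 10 members (Lcn2, Ltf, Ly6g, Ngp, Retnlg and S100a9), and it is present in 9.56% of the 32851 mouse promoter windows of that length. GAGGAA was found for 6 members (Elane, Lcn2, Ltf, Ly6g, Mpo and S100a8), against 23.3% of all windows, and TATAAA for 2 (Ly6g and S100a8), against 12.4%. A match is a run of letters and was not tested as a binding site. Ngp had a second TTGCNNAA match 11 bases before its start. S100a8 had a GAGGAA match 36 bases and a TATAAA match 30 bases before its start. All lie beyond the point where the first annotated exon begins and so were not printed.

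S100a8 and S100a9 had the highest mean levels per length of transcript among the members. S100a8 stood at 24.0, 12.5 and 4.69 CPM in APAP libraries 1, 2 and 3, with a control value of 2.51 CPM (95% interval 1.90 to 3.26). S100a9 stood at 22.7, 12.1 and 4.32 CPM, with a control value of 2.34 CPM (1.75 to 3.06). Library 1 was high and library 3 low for both genes, and every APAP library lay above the control. On the log2 scale S100a8 was 2.45 higher (SE 0.94, edgeR adjusted p = 0.0809) and S100a9 2.48 higher (SE 0.96, adjusted p = 0.0817), so neither passed the threshold of 0.05. Without library 3 S100a8 gave 2.87 (adjusted p = 0.000511) and S100a9 2.91 (adjusted p = 0.000441), and without library 1 they gave 1.77 (adjusted p = 0.038) and 1.81 (adjusted p = 0.0415). Both passed when either of these libraries was left out, and neither passed without library 2 (adjusted p = 0.136 and 0.139).

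The 2 partners of calprotectin kept almost the same proportion in every library. Each count of S100a9 came with 1.06, 1.03 and 1.09 counts of S100a8 in libraries 1, 2 and 3 and with 1.08 for control cells. The highest APAP library was 5.12 times the lowest for S100a8 and 5.26 times for S100a9. Over the 13476 tested genes with a mean of at least 1 CPM in the APAP libraries, that ratio had a median of 1.17, and 0.267% of genes reached the ratio of S100a8.

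**Figure D1:**
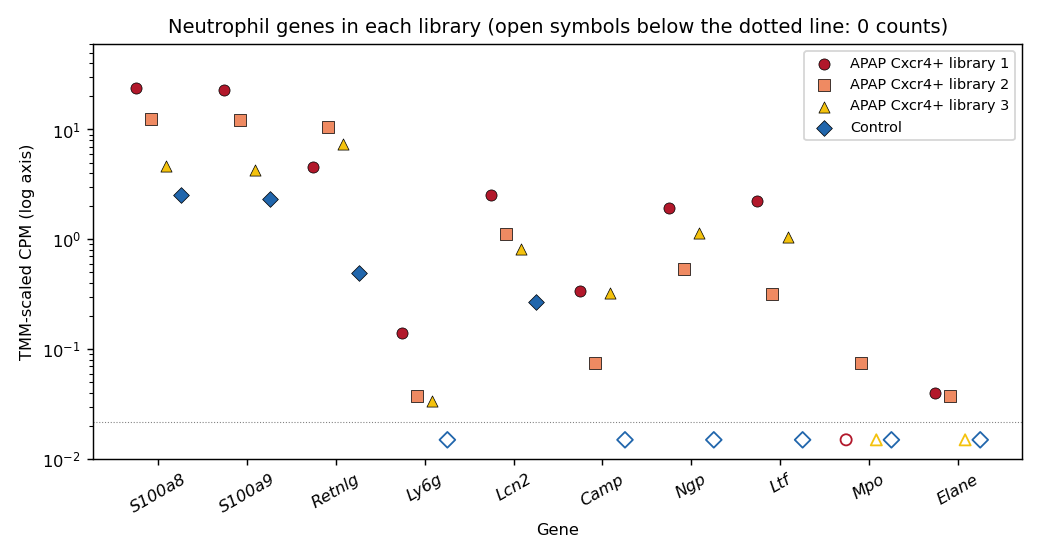
TMM-scaled CPM (log axis) of each of the 10 genes (horizontal axis) in the 3 APAP Cxcr4+ libraries and the control; open symbols under the dotted line stand for 0 counts. S100a8 and S100a9 run from 24.0 and 22.7 CPM in library 1 to 4.69 and 4.32 CPM in library 3, and 6 genes are at 0 in the control.

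Retnlg rose, and its order of libraries was different. It stood at 4.52, 10.5 and 7.32 CPM in APAP libraries 1, 2 and 3, with the highest value in library 2, while the control value was 0.489 CPM (95% interval 0.244 to 0.876). All 3 APAP libraries were above the control, and their mean of 7.45 ± 3.002 CPM (SD, n = 3) was 15.2 times its level. The log2 fold change was 3.92 (SE 0.63, edgeR adjusted p = 0.0056). Among all genes tested, 44.3% passed this test and 25.4% were higher. Retnlg was the member that passed under every alternative run. Each count of S100a8 came with 0.188, 0.842 and 1.56 counts of Retnlg in libraries 1, 2 and 3 and with 0.195 for control cells. Library 1 was near the control in this proportion although its S100a8 level was the highest of the 4 libraries.

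Ly6g, the antigen most used to identify mouse neutrophils, was close to absent. It had 7, 2 and 2 counts after APAP, or 0.139, 0.0372 and 0.0341 CPM, and 0 counts for control cells. Library 1 was the only one above the limit of 6 counts, so no fold is given, and a difference was not detectable at this depth. With no count filter its adjusted p was 0.255. Ly6g belongs to a family of close copies, and how reads shared between genes were counted is not given in the sources used here.

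The secondary granule genes Camp, Ngp and Ltf had 0 counts in the control and reads in every APAP library. The control had reads for fewer genes as a whole, and the part of this in these zeros was not tested. Ngp stood at 1.93, 0.540 and 1.14 CPM (97, 29 and 67 counts), with a mean 9.02 times the limit in the control. Ltf stood at 2.23, 0.316 and 1.04 CPM (112, 17 and 61 counts), with a mean 8.95 times that limit. Camp stood at 0.338, 0.0744 and 0.324 CPM (17, 4 and 19 counts), with a mean 1.84 times the limit and library 2 under it. Library 2 was lowest for all 3 genes, where Retnlg was highest. For Ngp and Ltf every APAP library lay above the limit of the control, and for Camp libraries 1 and 3 did. In the edgeR test Ngp (adjusted p = 0.014) and Ltf (adjusted p = 0.0371) rose, and Camp (adjusted p = 0.0631) did not pass. These genes reached the test only through the APAP libraries, so having been tested already required them to be higher there. Their fitted log2 fold changes of 8.96 (SE 1.91), 8.95 (SE 2.61) and 6.69 (SE 2.35), in the order Ngp, Ltf and Camp, depend on how a zero is handled and are no measure of size.

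Lcn2, the fourth secondary granule gene, had the library order of S100a8 and not that of the other granule genes. Libraries 2 and 3 were close in reads of Lcn2, at 60 and 48 counts, and their order was not tested. The level of Lcn2 was 2.53, 1.12 and 0.819 CPM in libraries 1, 2 and 3, with a control value of 0.267 CPM (12 counts, 95% interval 0.098 to 0.581). All APAP libraries were higher, with library 1 on top. The log2 fold change was 2.46 (SE 0.85, edgeR adjusted p = 0.0597). It passed without library 1 (1.85, adjusted p = 0.0323) and without library 3 (2.77, adjusted p = 0.00863). Each count of S100a8 came with 0.105, 0.0894 and 0.175 counts of Lcn2 after APAP and with 0.106 for control cells.

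**Figure D2:**
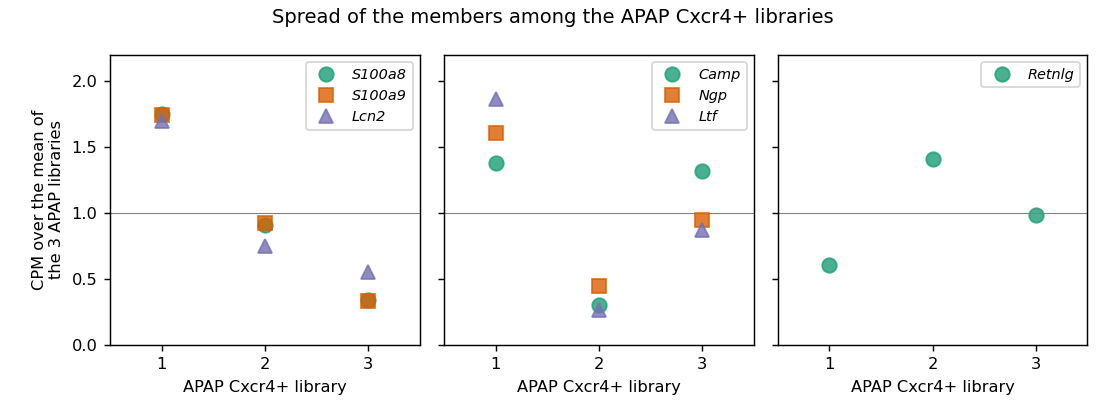
CPM of each gene divided by its mean over the 3 APAP Cxcr4+ libraries (vertical axis), by library (horizontal axis), in 3 panels; the grey line marks the mean. S100a8, S100a9 and Lcn2 are lowest in library 3 (0.341, 0.331 and 0.55 of their means), Camp, Ngp and Ltf in library 2 (0.303, 0.448 and 0.265), and Retnlg in library 1 (0.606).

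The primary granule genes were at the edge of detection. Mpo had 0, 4 and 0 counts after APAP and Elane 2, 2 and 0, and both had 0 in control cells. Every one of these values lies under the limit of 6 counts, so no comparison is possible. Of other genes of immature granulocytes, Ctsg, cathepsin G, had 2 counts in library 2 and 0 elsewhere, and Ms4a3 had 0 counts in all 4 libraries. The serine protease gene Prss57 had 6, 8 and 5 counts against 0 and was not tested. Its APAP mean of 0.118 CPM lies under the control limit of 0.133 CPM, so no difference is given. Prtn3, proteinase 3, was higher in number of reads at 1.25, 0.819 and 0.751 CPM against 0.534 CPM, a log2 difference of 0.81 that did not pass (SE 0.48, edgeR adjusted p = 0.213).

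Across the members, 8 of 10 had the control below all 3 APAP libraries (all but Mpo and Elane, and counting Ly6g and Camp, whose lowest libraries lie under the limit of 6 counts), where 37.7% of the 27284 genes with reads and 45.7% of the genes tested did. The opposite, a control above all 3, held for 0 members and 39.2% of genes tested. The test called 3 of the 7 tested members higher (Retnlg, Ngp and Ltf) and 0 lower, beside the 25.4% of all tested genes that were higher, and 2 of these 3 entered the test only through the APAP libraries. At an unadjusted p under 0.05, 7 of 7 were higher and 0 lower, beside 30.7% of all tested genes higher. Of these 7, 3 (Camp, Ngp and Ltf) were tested only through the APAP libraries. Their direction was thus fixed in advance, and the 7 of 7 is no support for a direction. No alternative called a member lower, which for Camp, Ngp and Ltf was fixed in advance too. With no count filter, 7 of 10 members were higher, beside 18.0% of 27284 genes. With limma-voom 1 was (Retnlg), beside 22.1% of all genes higher in that run, and with DESeq2 5 were, beside 26.3%. The number was 6 without library 1, 4 without library 2 and 6 without library 3, beside 28.1%, 16.2% and 26.1% of all genes.

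**Figure D3:**
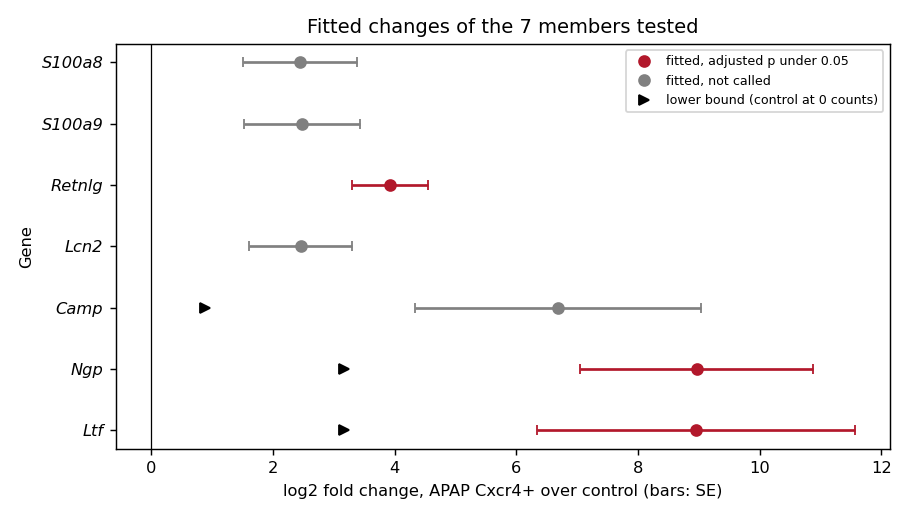
Fitted log2 fold change of APAP Cxcr4+ over control with its standard error (horizontal axis) for the 7 genes tested (vertical axis); red marks an adjusted p under 0.05 and triangles mark the log2 of the lower bound where the control had 0 counts. Retnlg, Ngp and Ltf are red, and the bounds of Camp, Ngp and Ltf lie well to the left of their fitted values.

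Per kilobase of their longest protein-coding transcript, the order of mean level in the APAP libraries was S100a8 (28.3 ± 20.02 CPM per kb, SD, n = 3), S100a9 (25.1 ± 17.8), Retnlg (12.6 ± 5.06), Lcn2 (1.63 ± 0.997), Ngp (0.985 ± 0.57), Ltf (0.436 ± 0.352) and Camp (0.324 ± 0.196). Ly6g at 0.0746, Elane at 0.0261 and Mpo at 0.00902 CPM per kb came last. Neighbours in this order had overlapping ranges over the APAP libraries, except Retnlg and Lcn2: every library had more Retnlg per length than the highest value of Lcn2. In library 3 the order of the first members was turned, with 12.3 CPM per kb for Retnlg and 9.65 for S100a8. In the control the order of the 4 members with reads was the same, from 5.17 CPM per kb for S100a8 to 0.292 for Lcn2. In bulk RNA, fewer cells with a transcript and less of it per cell cannot be told apart, and this holds for each level given here.

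Further neutrophil genes were taken from a list of 50, of which 49 were in the table and 41 were tested. In that list 16 rose and 7 fell, beside 25.4% and 18.9% of all genes. The median log2 fold change was 1.04, or 0.81 with the 4 genes at 0 in the control set at their lower bound, and it was 0.085 over all genes tested. Of the 41, 10 reached the test only through the APAP libraries, so these counts are no support for a direction. Those of the 10 that were called are Mmp8, Chil3, Ltb4r1, Cxcr2, Padi4 and Cebpe, and having been tested already required them to be higher after APAP.

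Of 13 tested secondary and tertiary granule genes, 7 rose, 0 fell and 6 did not pass, beside 25.4% higher and 18.9% lower of all tested genes. Of these 13, 4 reached the test only through the APAP libraries, so the split is no support for a direction. The collagenase Mmp8 stood at 42.7, 22.1 and 15.7 CPM after APAP and at 0.133 CPM in control cells (6 counts, 95% interval 0.0275 to 0.39). The chitinase-like Chil3, which is also on the monocyte list, stood at 59.1, 49.6 and 33.0 CPM. It had 0 control counts, and its APAP mean was 354 times the limit in the control. The others that rose, named after their values were seen, were Cd177, Pglyrp1, Ceacam1, Slpi and Ltb4r1. Cd177, a surface glycoprotein of neutrophils, had the library order of S100a8, at 8.61, 4.62 and 2.06 CPM against 0.267 CPM. The gelatinase Mmp9, also named after its value was seen, stood at 51.4, 38.1 and 24.6 CPM against 40.2 CPM, so the control lay within the APAP range. Hp and Wfdc21, likewise named after their values were seen, had the control above all 3 APAP libraries and were not called. Their log2 fold changes were -0.631 and -1.16. In this group 12 of the 15 genes had the control below all 3.

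Of 19 tested receptors and cytosolic genes of mature neutrophils, 6 rose and 4 fell, shares near the 25.4% and 18.9% of all tested genes. The chemokine receptor Cxcr2 stood at 14.5, 11.7 and 2.42 CPM against 0.089 CPM (4 counts, 95% interval 0.0108 to 0.321), and like S100a8 it was lowest in library 3. Also among those that rose, and named after their values were seen, were Csf3r, the receptor of granulocyte colony-stimulating factor (0.81), Mmp25 (2.55), Padi4 and Slfn4 (3.17), values on the log2 scale. The formyl peptide receptors Fpr2 and Fpr1 fell by 2.33 (SE 0.13) and 1.30 (SE 0.23), respectively. The sialic acid receptor Siglece fell by 2.10, and the leukotriene pathway gene Alox5ap fell by 0.49. Fpr2 stood at 14.5, 16.6 and 17.9 CPM against 82.0 CPM, a direction opposite to that of Cxcr2 in the same libraries.

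Of the 3 tested genes among 6 for primary granules and progenitors, Serpinb1a, an inhibitor of neutrophil serine proteases, rose by 2.64 (SE 0.54, edgeR adjusted p = 0.0124) and the receptor Clec5a by 1.89 (SE 0.38, adjusted p = 0.0116). These 2 of 3 stand beside 25.4% of all tested genes higher. Of 6 transcription factors, Cebpe rose and Cebpb, Cebpd and Spi1 (which encodes PU.1) fell, beside 25.4% higher and 18.9% lower of all tested genes. Cebpe reached the test only through the APAP libraries. Cebpe, which drives secondary granule genes in maturing neutrophils, had 41, 42 and 56 counts after APAP (0.816, 0.782 and 0.955 CPM). Cebpe had 0 counts in control cells, and its APAP mean was 6.37 times the limit there. Its 3 APAP libraries were close to each other, unlike those of Ltf, Ngp and Camp, and library 2 was not set apart. Cebpb fell by 1.41 (SE 0.10), from 633 CPM to 230, 253 and 233 CPM.

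**Figure D4:**
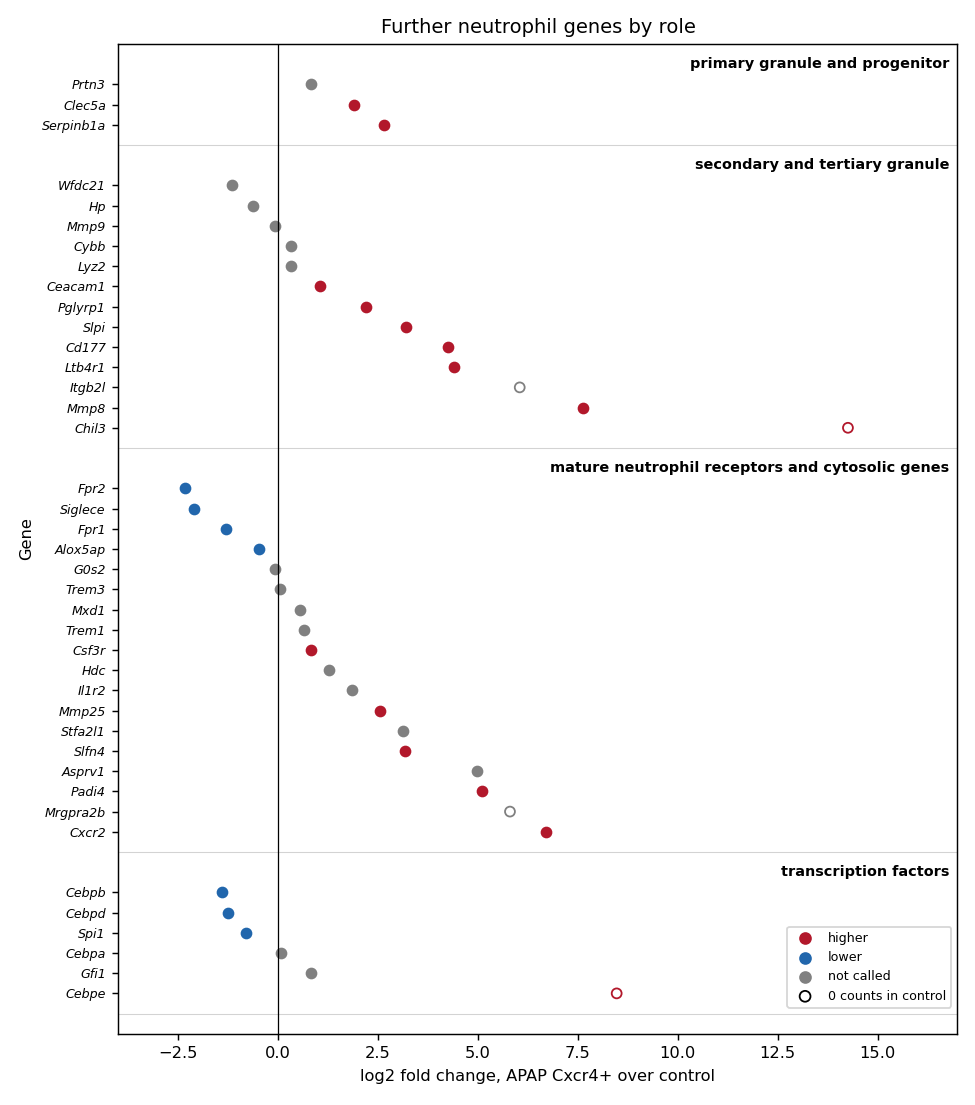
Fitted log2 fold change of APAP Cxcr4+ over control (horizontal axis) for 40 of the 41 tested genes of the further neutrophil list, grouped by role (vertical axis); red is higher, blue lower, grey not called, and open circles had 0 counts in the control. Secondary and tertiary granule genes hold 7 red points and no blue one, and 4 of their 13 genes were tested only through the APAP libraries. The receptor and cytosolic group as drawn holds 5 red and 4 blue.

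Markers of other cells moved with the groups, and their part in the results for the neutrophil genes was not tested. The summed level of 7 monocyte markers ranged from 605 to 775 CPM after APAP and was 30.8 CPM in control cells, where Chil3 and Vcan were at 0. All 7 rose, beside 25.4% of all tested genes, among them Ccr2 by 4.60, F13a1 by 5.36 and Cx3cr1 by 4.79 on the log2 scale. Chil3 and Vcan reached the test only through the APAP libraries. Their direction was thus fixed in advance, and the 7 of 7 is no support for a direction. Ly6c2, the marker of inflammatory monocytes, had the library order of S100a8, at 27.7, 16.5 and 13.8 CPM against 3.60 CPM. Kupffer cells are the resident macrophages of the liver. Of their 6 markers 5 fell (Clec4f, Timd4, Vsig4, Cd5l and Folr2) and 0 rose, beside 18.9% lower and 25.4% higher of all tested genes. The 6 summed to 11802 to 14627 CPM after APAP against 29163 CPM. Clec4f fell from 13078 CPM to 2784, 4082 and 4669 CPM. All 6 hepatocyte markers fell, beside 18.9% of all tested genes, and Fgb, Apoa1, Alb and Cyp2e1 had the smallest p-values. The 6 summed to 1388, 1736 and 2233 CPM against 3415 CPM. Most of each sum was Trf, named after its values were seen, at 1109, 1516 and 1877 CPM against 2680 CPM. Alb stood at 218, 177 and 269 CPM against 492 CPM, so the library order of the sum is that of Trf.

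Among the APAP libraries, the sum of red cell transcripts was highest in library 2, as Retnlg was, while S100a8 and Ngp were highest in library 1. The 7 erythroid markers summed to 31.7, 181 and 38.8 CPM in APAP libraries 1, 2 and 3 and to 224 CPM in the control, with 6 tested and 0 called in either direction (0 of 6 at an unadjusted p under 0.05). The control thus had the highest erythroid sum and the lowest sum of the 10 neutrophil members (58.4, 37.3 and 19.7 CPM against 5.61 CPM). Library 2 had the highest erythroid sum after APAP, the highest Retnlg and the lowest Camp, Ngp and Ltf. Of 6 measured eosinophil markers, 4 were tested. Of these, 2 rose (Il5ra and Siglecf) and 0 fell, beside 25.4% higher and 18.9% lower of all tested genes. Il5ra had 0 control counts and reached the test only through the APAP libraries, so its direction was fixed in advance. Prg2 and Ear6 had at most 2 counts in any library. Of 8 markers of granulocyte-monocyte progenitors, 3 were tested and 5 were at 0 in control cells. Cd34 and Kit rose, beside 25.4% of all tested genes, and Prtn3 did not pass. Of 7 basophil and mast cell markers, 0 of 3 tested (Ms4a2, Cyp11a1 and Gata2) were called, also at an unadjusted p under 0.05, and Mcpt8, Cpa3, Fcer1a and Prss34 had at most 8 counts in any library.

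**Figure D5:**
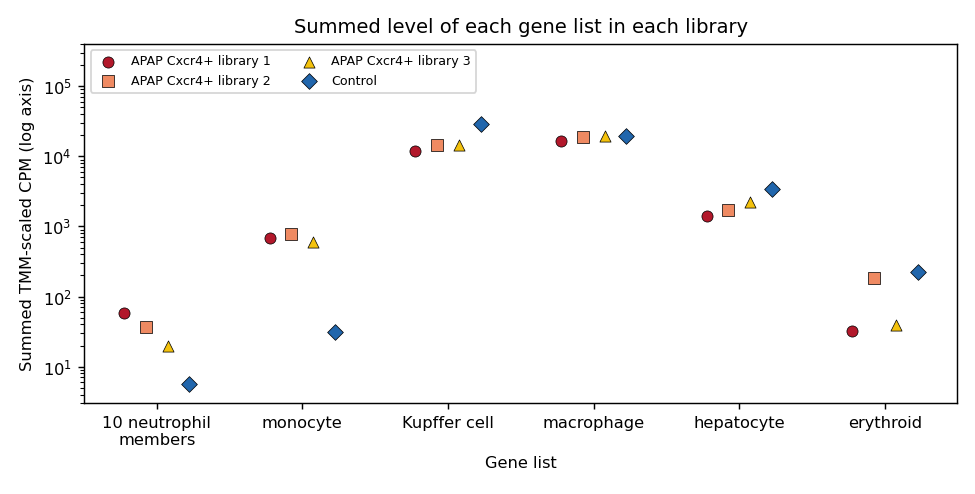
Summed TMM-scaled CPM (log axis) of the 10 neutrophil genes and of 5 marker lists (horizontal axis) in each of the 4 libraries. The neutrophil sum falls from 58.4 CPM in APAP library 1 to 5.61 CPM in the control, while the erythroid sum is highest in the control (224 CPM) and in library 2 (181 CPM).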

How the data were processed

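The deposited table holds raw read counts for each Ensembl gene in 3 APAP libraries and 1 control library of sorted liver macrophages. The submitters' processing notes name HISAT2, Subread and build mm39. Versions, annotation, strandedness and the treatment of shared reads are not stated there or in the labels. Symbols were matched for 28926 of 29247 gene IDs. Tests used edgeR 4.0.16, run under R 4.3.3 (TMM factors 1.04, 1.03, 1.03 and 0.90; filterByExpr with a minimum count of 10 and total of 15; quasi-likelihood F test, Benjamini-Hochberg adjustment over the 18715 genes tested, threshold 0.05). With 1 control, the spread comes from the APAP libraries (2 residual and 3.80 prior degrees of freedom) and the lone control is taken to vary as they do. The SE is the log2 fold change divided by the square root of F. The test was checked on simulated counts.

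Alternatives were other size factors, other count filters, leaving out each APAP library, DESeq2 1.42.0, limma-voom (limma 3.58.1), a test against a 2-fold change, plain library totals, and leaving out mitochondrial and ribosomal protein genes. Halved counts and another transcript length were added after seeing the data. Transcript lengths are from GENCODE for GRCm38. The members and lists were chosen with earlier results of these data known. All 10 members were to be named, with the 4 smallest p-values of each list, the first gene of each marker list, and every gene of a count of 5 or fewer; others are said to be named after their values were seen. One gene that this rule names is not reported here.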

Additional observations from a re-analysis of the deposited data

How the results depend on the processing

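No member changed direction under any alternative run. For Camp, Ngp and Ltf, at 0 counts in the control, a change was not possible. For S100a8, S100a9, Retnlg and Lcn2 the control lay below every APAP library, so leaving out 1 library could hardly reverse them. The unchanged direction is thus no support for a direction. Retnlg passed the test under all 12 alternatives (log2 fold change 3.59 to 4.18). Ngp lost its call with limma-voom (adjusted p = 0.0636) and against a 2-fold change (0.056), and Ltf with these (0.148 and 0.127) and with halved counts (0.056). Camp, Lcn2, S100a8 and S100a9 gained a call under 3, 4, 3 and 3 alternatives. The 3 members called higher became 1 with a filter of 5 CPM, which left 3 members tested, beside 28.3% of all genes higher. They became 5 with the DESeq2 Wald test (26.3% of all genes higher), 1 with limma-voom (22.1%) and 7 with no count filter (18.0%). Against a 2-fold change 1 was called, and leaving out 1 APAP library gave 4 to 6, with the shares of all genes given below. The cause of these shifts was not tested, apart from the smaller number tested at 5 CPM. In the wider list, 7 rose and 3 fell against a 2-fold change. The share of all genes called was 7.37% against a 2-fold change, with 5.87% higher, and leaving out 1 APAP library gave 27.3% to 50.8%, with 16.2% to 28.1% higher; the lowest of each was without library 2. Depth limits Ly6g, Mpo and Elane, with at most 7 counts in any library. Lengths from a protein table were not run, since no such table was used here. No paired analysis was possible because the control is 1 library without a replicate number.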
